A study of Mus musculus with 9 samples.

Results

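The SOX transcription factors examined here are Sox2, Sox4, Sox5, Sox6, Sox8, Sox9, Sox10, Sox11, Sox17 and Sox18, chosen by symbol. Each had 1 row among the 84809 rows of the expression table, so 10 of 10 were found, and 9 of them passed the filter on low values. They were followed in dermal cells of newborn mice, sorted by flow cytometry into the gates CD49f-neg, CD49f-low and CD49f-high, with 3 libraries per gate. All 9 libraries came from directly isolated primary cells of the strain Krt14 cre;Rosa26-mTmG, in which a Cre recombinase under the keratin 14 promoter acts on a membrane-targeted dual-colour reporter; the labels do not say by which colour, if any, cells were chosen. CD49f is integrin alpha 6, encoded by Itga6, and the labels call each gate mesenchymal cells. There was no other treatment, and each gate differs from the others by its CD49f signal alone as far as the labels say. The question the design poses is how expression differs between the gates.

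SOX proteins bind DNA through a high-mobility-group box that recognises short sequences of the type ACAAAG and ACAATG and bends the helix. They work in groups of near relatives and with partner factors, and in skin they are known from several lineages: SoxE factors (Sox8, Sox9, Sox10) from the neural crest, its pigment and glial cells, the hair follicle and cartilage, SoxB (Sox2) from the dermal papilla, SoxF (Sox17, Sox18) from vessels, SoxC (Sox4, Sox11) from immature cells, and SoxD (Sox5, Sox6) as partners that tune SoxE activity.

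Levels are FPKM, fragments scaled to transcript length and to the mapped fragments of the library, so that genes can be compared per length. Differences between gates are log2 fold changes of FPKM + 1 from limma, a linear model fitted over 20523 rows, with p-values adjusted over all of them, and an adjusted p under 0.05 counted as a call. This scale understates the fold change of low genes. Itga6 itself averaged 0.475 ± 0.216, 5.51 ± 0.979 and 19.9 ± 4.11 FPKM (SD, n = 3) from the negative to the high gate. Fibroblast markers, which include Lum, Lox, Eln and Mfap4, summed to between 14481 and 17457 FPKM in CD49f-neg, between 5869 and 7119 in CD49f-low and between 4145 and 6188 in CD49f-high, so mesenchymal genes were abundant in every library. Markers of other cell types also moved between the gates, and their values stand beside those of SOX genes. Counts of marker rows called are to be read against the shares of all 20523 rows. These were 12.8% higher and 2.62% lower in CD49f-low against CD49f-neg, and 13.9% and 8.27% in CD49f-high against CD49f-neg. In CD49f-high against CD49f-low they were 5.93% and 10.5%. These are bulk samples, in which fewer cells of a type and less RNA per cell cannot be told apart. FPKM keep no direct read count. The spacing of the lowest values of single-exon genes puts 1 FPKM over 1 kb at between 23.7 and 27.3 fragments per library, if the largest regular step is 1 fragment.

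Upstream sequence was taken for members whose start sites are in the RefSeq promoter table of GRCm38.p6, which held 6 of the 10, namely Sox2, Sox4, Sox5, Sox6, Sox8 and Sox11. The 250 bases before the start were searched on both strands for the SOX-type motifs ACAAAG and ACAATG, which end differently, so that 1 site cannot match both. Of 32851 such windows in the table, 25.2% held at least 1 match and 0.493% held 3 or more. The windows printed are those of Sox2, Sox5 and Sox6, the members with a match, and of the pigment gene Dct, a known target of Sox10. They run 5′ to 3′ on the gene's strand and end at the base before the start, with matches in capitals.
Sox2, chr3:34649745-34649994, plus strand: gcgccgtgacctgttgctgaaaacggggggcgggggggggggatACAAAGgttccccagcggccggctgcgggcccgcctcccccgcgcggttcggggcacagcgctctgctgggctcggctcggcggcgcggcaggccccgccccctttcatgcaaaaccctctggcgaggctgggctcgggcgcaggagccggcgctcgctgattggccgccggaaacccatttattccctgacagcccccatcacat
Sox5, chr6:143947107-143947356, minus strand: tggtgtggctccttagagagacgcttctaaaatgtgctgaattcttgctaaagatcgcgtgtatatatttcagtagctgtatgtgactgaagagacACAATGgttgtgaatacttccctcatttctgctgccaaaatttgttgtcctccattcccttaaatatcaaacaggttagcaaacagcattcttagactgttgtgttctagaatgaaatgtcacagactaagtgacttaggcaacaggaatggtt
Sox6, chr7:116038745-116038994, minus strand: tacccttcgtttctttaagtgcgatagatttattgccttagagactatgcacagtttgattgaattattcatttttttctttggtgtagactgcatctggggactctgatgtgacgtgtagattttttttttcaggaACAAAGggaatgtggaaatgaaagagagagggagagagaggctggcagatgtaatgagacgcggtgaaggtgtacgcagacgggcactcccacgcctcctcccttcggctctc
Dct, chr14:118052247-118052496, minus strand: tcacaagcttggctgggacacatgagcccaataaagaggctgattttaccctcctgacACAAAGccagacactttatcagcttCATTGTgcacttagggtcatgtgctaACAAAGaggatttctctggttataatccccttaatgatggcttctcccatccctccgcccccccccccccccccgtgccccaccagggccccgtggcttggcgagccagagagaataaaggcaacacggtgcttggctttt
The Sox2 window had 1 match, 206 bases before the start, in sequence of 72% GC with 27 CpG, against a median of 52.4% and 6 over all windows. Sox5 had 1 match at 154 bases, before a start that lies inside the gene's annotated span, and its window was 39.6% GC with 3 CpG. Sox6 had 6 starts in the table, of which the outermost is shown, with 1 match at 113 bases. The windows of its other starts held 1, 4, 1, 3 and 0 matches. Dct had 3 matches, at 192, 167 and 141 bases. No match was found in the windows of Sox4, Sox8 and Sox11. A match is a string of letters and does not show binding.

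Across the gates the SOX genes split into sets. Sox10, Sox6, Sox2, Sox5, Sox8 and Sox9 were higher in both CD49f-positive gates than in CD49f-neg. Sox18, Sox11 and Sox2 were highest in CD49f-low, Sox5 was highest in CD49f-high, Sox4 did not pass any test, and Sox17 was close to 0 throughout. The summed level of the 10 genes was between 45.5 and 49.8 FPKM in CD49f-neg, between 136 and 173 in CD49f-low, and 59.8, 104 and 106 in CD49f-high. In CD49f-neg, Sox18 and Sox4 made up 43.8% and 39.9% of that sum on average. The share of Sox10 went from 0.172% in CD49f-neg to 15.2% in CD49f-low, and CD49f-high had 28.7%.

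**Figure D1:**
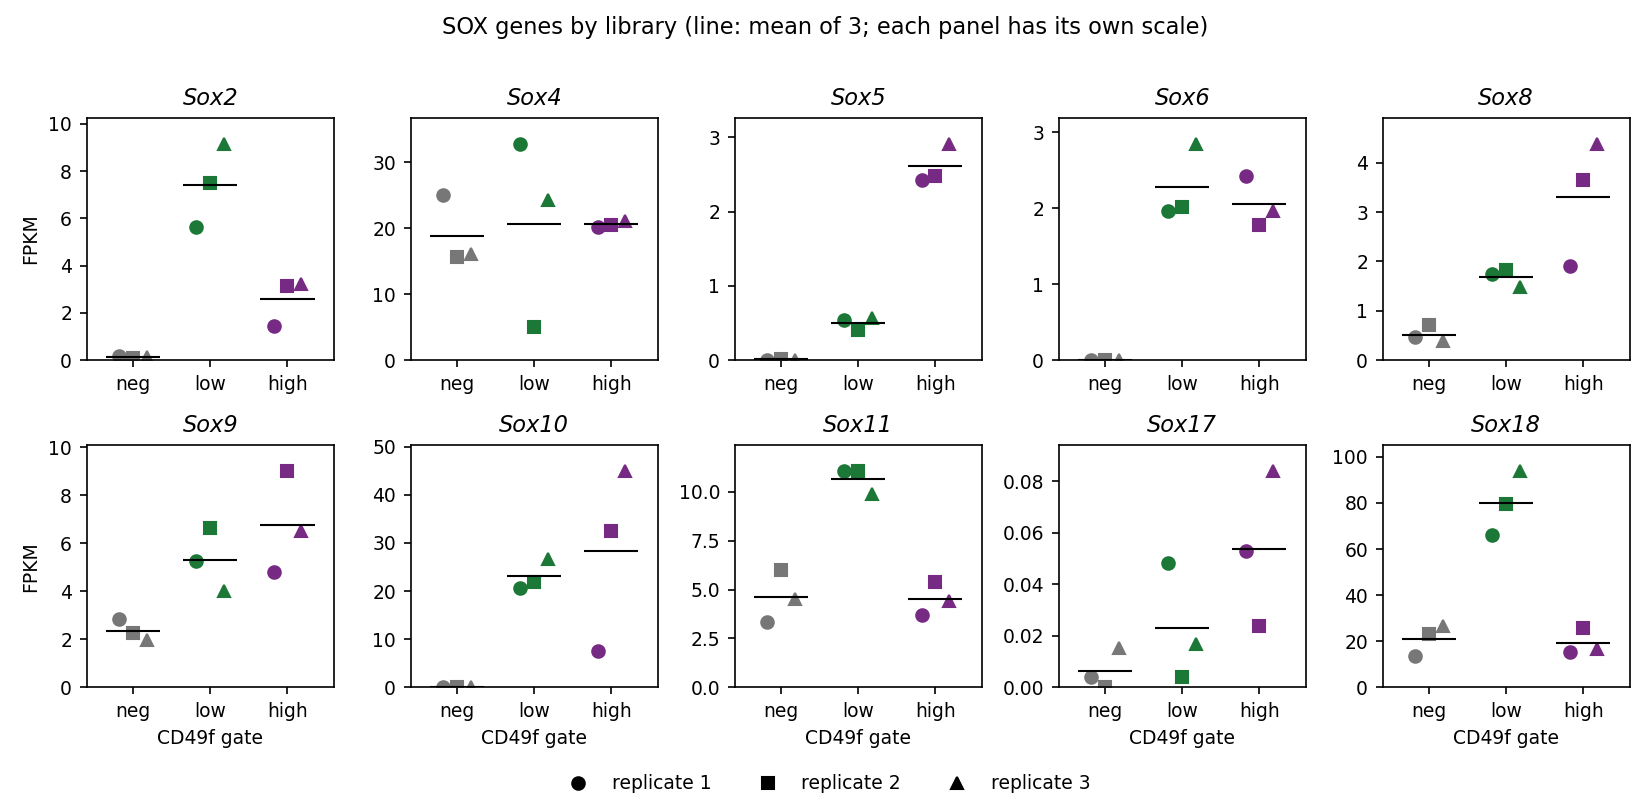
Level of each of the 10 SOX genes in FPKM (vertical axis, a separate linear scale per gene) by CD49f gate (horizontal axis), with 1 point per library, shaped by replicate number, and a line at the mean of 3 libraries. Sox18 and Sox11 peak in CD49f-low, Sox5 rises from gate to gate, and Sox10 ranges from 7.46 to 44.9 FPKM within CD49f-high.

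Sox10, the SoxE factor needed for melanocytes and Schwann cells, had the largest log2 fold change of FPKM + 1 between CD49f-neg and the other gates among the 9 tested. Its row lies on the minus strand of chromosome 15 (79154913 to 79164490, GRCm38). In CD49f-neg the libraries stood at 0.0952, 0.0564 and 0.0946 FPKM, in CD49f-low at 20.7, 21.9 and 26.7, and in CD49f-high at 7.46, 32.5 and 44.9. Every library of the positive gates was above every CD49f-neg library, while CD49f-high libraries lay on both sides of those of CD49f-low. The difference from CD49f-neg was 4.47 (SE 0.50, adjusted p = 0.000393) for CD49f-low and 4.44 (SE 0.50, adjusted p = 0.000213) for CD49f-high. Between the positive gates it was -0.03 (SE 0.50, adjusted p = 0.976). That last value rests on CD49f-high replicate 1. Without this library CD49f-high exceeded CD49f-low by 0.71 (adjusted p = 0.0218).

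The spread of Sox10 in CD49f-high was wide. Its coefficient of variation was 67.5%, which placed it at percentile 97.6 of the 17755 rows that passed the filter and averaged at least 1 FPKM in this gate, against a median row of 17.3%. In CD49f-low the same gene varied by 13.7%, near the median of 14.3%. Replicate 1 held 0.193 of the mean of replicates 2 and 3, and 0.287% of rows had a lower ratio, while the median row had 1.03. Of the 10 SOX genes, 8 were lowest in this library, where 32.2% of all rows were. The ratio was 0.450 for Sox2, 0.472 for Sox8 and 0.621 for Sox9, while Sox4 (0.967), Sox5 (0.901), Sox11 (0.757) and Sox18 (0.732) were nearer to 1. Sox6 went the other way and was highest there, at 1.30.

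Sox10 ran beside different marker genes in the positive gates. Dct, a melanin synthesis enzyme, stood at 138, 189 and 182 FPKM in CD49f-low and at 4.02, 4.75 and 1.65 in CD49f-high. Gfra3, a glial co-receptor of the GDNF family, was at most 0.309 FPKM in each CD49f-low library and reached 6.91, 27.5 and 34.7 in CD49f-high. So the pigment gene was high in the first gate and the glial gene in the second, at Sox10 levels whose ranges overlap. Erbb3, the neuregulin co-receptor used by both lineages, followed Sox10 with 11.2, 12.3 and 14.8 FPKM in CD49f-low and 7.73, 25.2 and 30.2 in CD49f-high. Foxd3, a neural crest factor whose row also covers the small gene Gm23366, stood at 4.79, 6.82 and 4.91 FPKM in CD49f-low and 7.68, 30.4 and 39.1 in CD49f-high.

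As whole lists, the 13 melanocyte markers summed to between 6.24 and 7.0 FPKM in CD49f-neg, between 471 and 583 in CD49f-low and between 27.5 and 46.1 in CD49f-high. Of these 13, all tested, 13 were higher in CD49f-low than in CD49f-neg, and 12 were lower in CD49f-high than in CD49f-low. The 19 Schwann cell markers other than Sox10 summed to between 78.9 and 108 FPKM in CD49f-neg, between 94.4 and 103 in CD49f-low, and 124, 343 and 382 in CD49f-high. Pmp22, which other cells also express, gave between 65.6 and 91.6 FPKM of the sum in CD49f-neg and between 45.6 and 58.2 in CD49f-low. Of 16 tested, 13 were called higher in CD49f-high when compared with CD49f-neg and 11 when compared with CD49f-low. In CD49f-high, 17 of the 19 were lowest in replicate 1, among them Foxd3 at 0.221 of the mean of the other libraries, Gfra3 at 0.222 and Erbb3 at 0.278. Dct and Mitf stood at 1.26 and 1.18 by the same measure. The part of these markers' cells in the level of Sox10 was not tested.

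**Figure D2:**
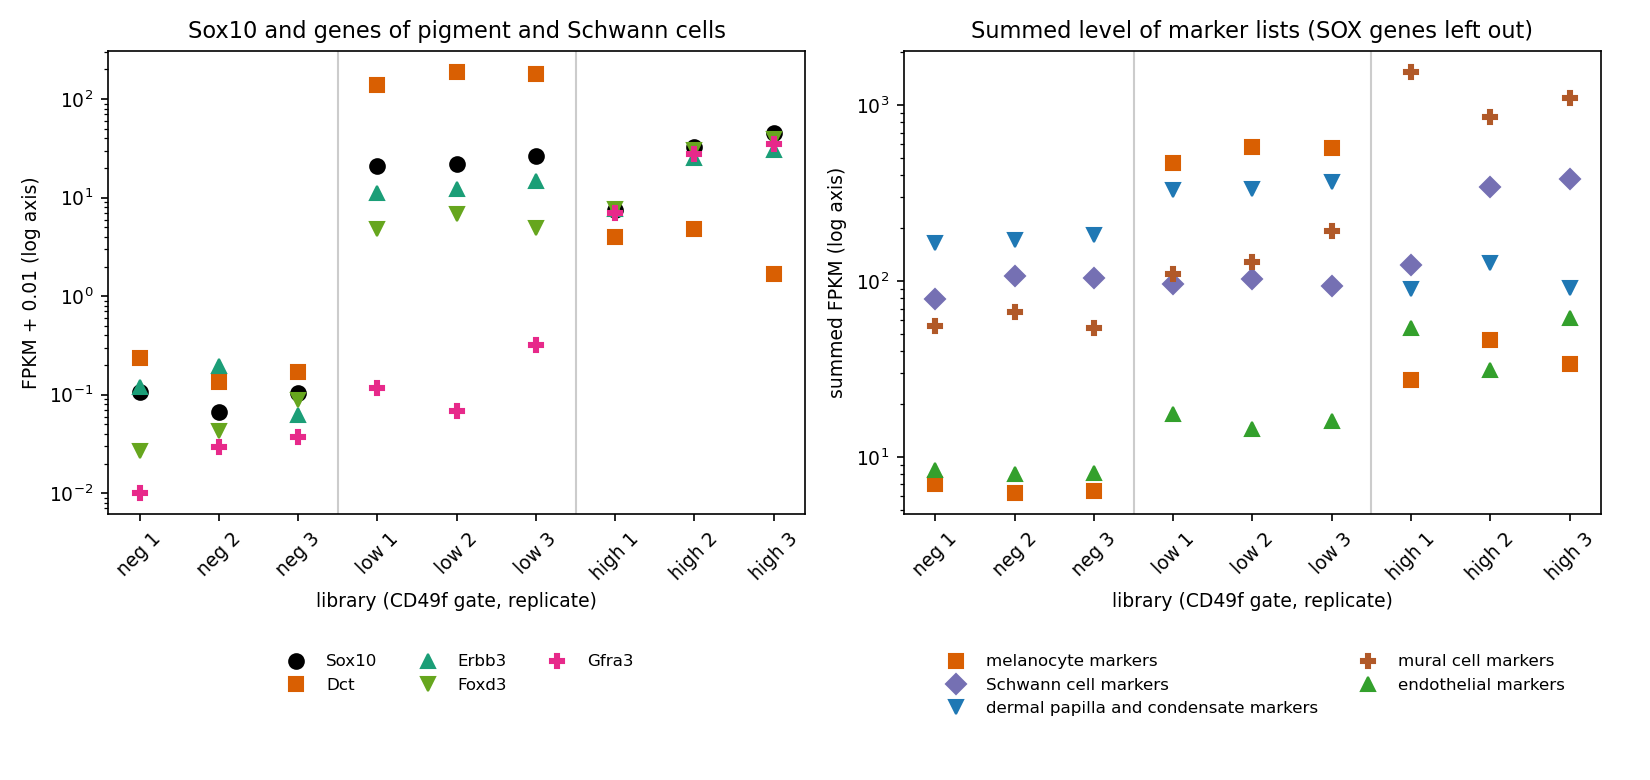
Left, FPKM + 0.01 (log axis) of Sox10 and 4 genes of pigment and Schwann cells in each of the 9 libraries, with a value of 0 drawn at 0.01; right, summed FPKM (log axis) of 5 marker lists in the same libraries. Dct stands above Sox10 in CD49f-low and below it in CD49f-high. Erbb3, Foxd3 and Gfra3 stand near Sox10 in CD49f-high, and in CD49f-high replicate 1 Sox10 falls together with them.

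Sox8, which shares functions with Sox10 in glia, was lower and more evenly graded. Its row is on the minus strand of chromosome 17 (25565892 to 25570686). It stood at 0.462, 0.712 and 0.379 FPKM in CD49f-neg, at 1.75, 1.83 and 1.49 in CD49f-low, and at 1.90, 3.66 and 4.38 in CD49f-high. No library overlapped with those of another gate, although CD49f-high replicate 1 was only just above the CD49f-low libraries. Against CD49f-neg it was higher by 1.47 (SE 0.21, adjusted p = 0.000976) in CD49f-high and by 0.83 (SE 0.21, adjusted p = 0.0302) in CD49f-low. The CD49f-low call was fragile. Adjusted p was between 0.0521 and 0.107 when any of the 6 libraries of CD49f-neg and CD49f-low was left out, 0.0779 when every row was kept, 0.0986 under median-of-ratios scaling and 0.146 under quantile normalization. The call was kept without CD49f-high replicate 1 (0.00367), 2 (0.0406) or 3 (0.0213) and on the 6 libraries compared (0.00605). It was also kept with the replicate block (0.0211), a pseudocount of 0.1 (0.0115) and no mean-variance trend (0.0297). Between CD49f-high and CD49f-low the difference of 0.63 (SE 0.21) missed the threshold, with adjusted p = 0.0751, and it passed without CD49f-high replicate 1 (0.90, adjusted p = 0.0053), under median-of-ratios scaling (0.77, adjusted p = 0.0488) and under quantile normalization (0.75, adjusted p = 0.0439).

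Sox9, a factor of cartilage and of hair follicle epithelium, was the SoxE gene with the clearest level in CD49f-neg. Its row, on the plus strand of chromosome 11 (112782224 to 112787760), also covers a long non-coding RNA, so the reads of the pair cannot be told apart. It was at 2.87, 2.26 and 1.97 FPKM in CD49f-neg, 5.27, 6.62 and 4.0 in CD49f-low, and 4.82, 9.02 and 6.49 in CD49f-high. All 6 libraries of the positive gates were above the 3 of CD49f-neg, and those of CD49f-low and CD49f-high overlapped. Sox9 was higher than in CD49f-neg by 1.18 (SE 0.22, adjusted p = 0.00388) in CD49f-high and by 0.89 (SE 0.22, adjusted p = 0.0257) in CD49f-low, and the positive gates differed by 0.29 (SE 0.22, adjusted p = 0.402). Its CD49f-low call was lost when every row was kept (adjusted p = 0.0730), under median-of-ratios scaling (0.101) and under quantile normalization (0.0960), and without CD49f-neg replicate 2 (0.0720) or 3 (0.0977) or CD49f-low replicate 1 (0.0691) or 2 (0.0996).

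Markers of 2 cell types that use Sox9 moved in the same direction. The 13 chondrocyte markers with a row summed to between 3.59 and 6.40 FPKM in CD49f-neg, between 16.1 and 34.0 in CD49f-low and between 22.7 and 34.9 in CD49f-high. Of their 5 tested rows, 4 were called higher in CD49f-low and 3 in CD49f-high, led by Acan, the main cartilage proteoglycan, with 3.58, 7.99 and 11 FPKM in CD49f-low. Col2a1, the defining cartilage collagen, did not exceed 0.496 FPKM in any library, and 2 of the 13 rows were at 0 in CD49f-neg and in CD49f-low. The 15 rows of keratinocyte and follicle epithelium markers, of which 2 are merged keratin rows that cannot be assigned to 1 gene, summed to between 7.75 and 12.7, between 49.6 and 51.7 and between 36.1 and 74.1 FPKM. Their part in the level of Sox9 was not tested.

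Sox2, the SoxB factor of the dermal papilla and of Schwann and Merkel cells, was highest in CD49f-low. Its single exon lies on the plus strand of chromosome 3 (34650405 to 34652461), inside the span of the long non-coding RNA Sox2ot on the same strand, whose row averaged 0.149 FPKM. In CD49f-neg the values were 0.164, 0.0977 and 0.138 FPKM, in CD49f-low 5.65, 7.48 and 9.16, and in CD49f-high 1.43, 3.12 and 3.22. The 3 gates were fully separate. Sox2 was higher than in CD49f-neg by 2.87 (SE 0.23, adjusted p = 5.02e-05) in CD49f-low and by 1.62 (SE 0.23, adjusted p = 0.000781) in CD49f-high, and CD49f-high was below CD49f-low, at -1.25 (SE 0.23, adjusted p = 0.00484). The GC-rich window upstream of Sox2 printed above belongs to a start that lies ahead of the GENCODE transcript's own.

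The ratio of Sox10 to Sox2 differed between the positive gates. It was 3.66, 2.93 and 2.91 in the CD49f-low libraries and 5.23, 10.4 and 14.0 in those of CD49f-high, so the ranges did not overlap. The 19 dermal papilla and condensate markers other than SOX genes summed to between 165 and 184 FPKM in CD49f-neg, between 332 and 365 in CD49f-low and between 90.4 and 127 in CD49f-high. Of the 19, 13 were higher in CD49f-low than in CD49f-neg and 17 were lower in CD49f-high than in CD49f-low, with Notum, a Wnt deacylase, at 6.41, 7.84 and 7.96 FPKM in CD49f-low and between 0.760 and 1.66 in CD49f-high. The Notch target Hey1 and the papillary factor Prdm1 were also highest in CD49f-low, whereas Wif1, a secreted Wnt inhibitor, was lower in CD49f-high (7.68, 12.2 and 8.85 FPKM) than in the other gates and was not called between CD49f-low and CD49f-neg (adjusted p = 0.336). The part of papilla, pigment or glial cells in the level of Sox2 was not tested.

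Sox18, the SoxF factor of blood and lymphatic vessels that is also known from dermal condensates, had the highest mean of the SOX genes in CD49f-neg and in CD49f-low. Its row is on the minus strand of chromosome 2 (181669836 to 181671640). It stood at 13.5, 23.2 and 26.6 FPKM in CD49f-neg, 66.3, 79.6 and 93.9 in CD49f-low, and 15.4, 25.6 and 16.5 in CD49f-high. The CD49f-low libraries were all above the other 6, which overlapped. Sox18 was higher in CD49f-low than in CD49f-neg by 1.91 (SE 0.26, adjusted p = 0.00142) and lower in CD49f-high than in CD49f-low, at -2.02 (SE 0.26, adjusted p = 0.000793). Between CD49f-high and CD49f-neg the difference was -0.11 (SE 0.26, adjusted p = 0.818). The rank in CD49f-neg did not hold in replicate 1, where Sox4 was at 25.0 FPKM and Sox18 at 13.5.

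Endothelial markers moved in more than 1 way beside Sox18. The 17 of them summed to between 8.03 and 8.44 FPKM in CD49f-neg, between 14.5 and 17.5 in CD49f-low and between 31.4 and 62.1 in CD49f-high. In every CD49f-neg and CD49f-low library Sox18 alone was above the whole list, and in every CD49f-high library it was below. Pecam1, which codes for CD31, was at 0.657, 0.223 and 0.172 FPKM in CD49f-low, and Cdh5, VE-cadherin, at 0.702, 0.218 and 0.603. In CD49f-high, where Sox18 was lower, Cdh5 reached 4.0, 4.36 and 7.56 FPKM. Kdr, a receptor of vascular endothelial growth factor, was highest in CD49f-low, as Sox18 was. It stood at 0.547, 0.736 and 0.786 FPKM in CD49f-neg, 3.06, 3.71 and 4.08 in CD49f-low, and 1.60, 0.913 and 1.95 in CD49f-high (adjusted p = 0.000553 for CD49f-low against CD49f-neg and 0.00612 for CD49f-high against CD49f-low). Its CD49f-high level was above that of CD49f-neg by 0.54, not called (adjusted p = 0.0512), where Sox18 had -0.11. Of the 11 endothelial rows tested, 3 were higher and 1 was lower in CD49f-low than in CD49f-neg, and 4 were higher and 1 was lower in CD49f-high than in CD49f-low. The part of endothelial cells in the level of Sox18 was not tested. Sox17, the arterial SoxF factor on the minus strand of chromosome 1 (4490931 to 4497354), did not exceed 0.0154, 0.0483 and 0.0841 FPKM from the negative to the high gate, and was listed at 0 in CD49f-neg replicate 2. It did not pass the filter and was not tested.

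Of the SoxC genes, Sox11 differed between gates and Sox4 did not pass. Sox11, a single-exon gene on the minus strand of chromosome 12 (27334264 to 27342574) whose row also covers 2 long non-coding RNAs, was at 3.34, 6.0 and 4.54 FPKM in CD49f-neg, 11.1, 11 and 9.87 in CD49f-low, and 3.71, 5.39 and 4.42 in CD49f-high. The CD49f-low libraries lay close together and above all others. Sox11 was higher in CD49f-low than in CD49f-neg by 1.08 (SE 0.18, adjusted p = 0.00384) and lower in CD49f-high than in CD49f-low, at -1.09 (SE 0.18, adjusted p = 0.00286), while CD49f-high and CD49f-neg differed by -0.02 (SE 0.18, adjusted p = 0.967).

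Sox4, on the minus strand of chromosome 13 (28948919 to 28953713, with a long non-coding RNA on the same row), was at 25.0, 15.6 and 16.1 FPKM in CD49f-neg, 32.8, 4.98 and 24.2 in CD49f-low, and 20.1, 20.6 and 21.1 in CD49f-high. The CD49f-high libraries were nearly level, with a coefficient of variation of 2.31%, whereas those of CD49f-low varied by 69.0%. CD49f-low replicate 2 held 0.205 of the lower of the other libraries, a ratio that 6 of the 3306 rows averaging at least 10 FPKM in this gate reached or went below (0.181%). The difference was -0.18 (SE 0.53, adjusted p = 0.837) for CD49f-low against CD49f-neg, 0.15 (SE 0.53, adjusted p = 0.882) for CD49f-high against CD49f-neg and 0.33 (SE 0.53, adjusted p = 0.708) for CD49f-high against CD49f-low. Without CD49f-low replicate 2 the first became 0.59 (adjusted p = 0.138) and the last -0.44 (adjusted p = 0.244), still not called. With SEs of this size a moderate difference in Sox4 was not detectable.

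The SoxD genes Sox5 and Sox6, long genes whose proteins lack an activation domain of their own, were almost silent in CD49f-neg and took different orders in the positive gates. Sox5, on the minus strand of chromosome 6 (143828425 to 144781977, 14 annotated transcripts), was at 0.00484, 0.0200 and 0.00765 FPKM in CD49f-neg, 0.535, 0.406 and 0.570 in CD49f-low, and 2.43, 2.49 and 2.91 in CD49f-high. The gates were fully separate and the CD49f-high libraries close to each other. Sox5 was higher than in CD49f-neg by 0.57 (SE 0.11, adjusted p = 0.00967) in CD49f-low and by 1.83 (SE 0.11, adjusted p = 7.2e-06) in CD49f-high, and higher in CD49f-high than in CD49f-low by 1.26 (SE 0.11, adjusted p = 0.000104). Its CD49f-low call was lost without CD49f-low replicate 3 (adjusted p = 0.0573) and after quantile normalization (0.169), and with any CD49f-high library left out Sox5 no longer passed the filter.

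Within the long span of Sox5 the table had 21 other rows on the same strand, 20 of them without a symbol. All 21 were highest in CD49f-high, with a median of row means of 0.00107, 0.240 and 1.57 FPKM from the negative to the high gate, the same order as Sox5 itself. The 8 rows on the opposite strand, with Sox5os3 among them, had means of at most 0.0330 FPKM. The labels do not state the strand of the libraries, and the signal of these rows is not part of the FPKM given for Sox5. That FPKM belongs to a row with 2 gene entries, whose reads cannot be told apart.

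Sox6, on the minus strand of chromosome 7 (115470872 to 116038796, 16 annotated transcripts), was at 0.00389, 0.00249 and 0.00478 FPKM in CD49f-neg, 1.97, 2.02 and 2.85 in CD49f-low, and 2.43, 1.78 and 1.96 in CD49f-high. The positive gates overlapped and both were far from CD49f-neg. Sox6 was higher than in CD49f-neg by 1.70 (SE 0.14, adjusted p = 6.19e-05) in CD49f-low and by 1.60 (SE 0.14, adjusted p = 4.55e-05) in CD49f-high, and the positive gates differed by -0.10 (SE 0.14, adjusted p = 0.671). The ratio of Sox5 to Sox6 was 0.271, 0.201 and 0.200 in the CD49f-low libraries and 1.00, 1.40 and 1.48 in those of CD49f-high, so Sox6 exceeded Sox5 in CD49f-low and did not in CD49f-high.

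Mural cell markers, genes of pericytes and vascular smooth muscle, had their highest sums in CD49f-high, the gate where Sox5 was highest. The 12 rows summed to between 54.3 and 66.5 FPKM in CD49f-neg, between 110 and 194 in CD49f-low and to 1552, 863 and 1106 in CD49f-high. All 12 were tested, with 12 called higher in CD49f-high when set against CD49f-neg and 10 when set against CD49f-low, with Notch3, a receptor of mural cells, at 196, 108 and 171 FPKM in CD49f-high. In CD49f-high replicate 1, where Sox10 was lowest, 9 of the 12 mural rows were highest. Sox5 was also lowest in that library of the gate, at 2.43 FPKM against 2.49 and 2.91, so it did not follow the mural rows within CD49f-high. Their part in the level of Sox5 was not tested. The 13 skeletal muscle and satellite cell markers, cells in which Sox6 and Sox8 are also known, summed to between 3.27 and 4.64 FPKM in CD49f-neg with 3 rows at 0, between 19.3 and 27.2 in CD49f-low, and between 32.2 and 61.8 in CD49f-high. Of their 6 tested rows, 5 were higher in CD49f-low and 3 in CD49f-high than in CD49f-neg, while between the positive gates 1 was higher in CD49f-high and 4 were lower. The higher one was Des, an intermediate filament gene that mural cells also express, whose 54.3, 28.2 and 45 FPKM made up most of the sum in CD49f-high. Myod1, a defining factor of myoblasts, was highest in CD49f-low at 3.09, 2.05 and 2.34 FPKM, with at most 0.182 in CD49f-high and 0 in each CD49f-neg library. The 8 immune markers summed to at most 3.81 FPKM in any library, and the single tested row, Cd68, was not called. The part of muscle cells in the levels of Sox6 and Sox8 was not tested.

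Counting over the SOX genes tested, 8 of 9 were higher in CD49f-low than in CD49f-neg and 0 were lower, where 15.4% of all rows were called (12.8% higher and 2.62% lower). Their median difference was 1.08 against 0.21 for all rows. In CD49f-high against CD49f-neg 6 of 9 were higher and 0 lower, where 22.1% of rows were called (13.9% higher and 8.27% lower), with a median of 1.47 against 0.07. Between CD49f-high and CD49f-low 1 was higher, Sox5, and 3 were lower, Sox2, Sox11 and Sox18, where 16.4% of rows were called (5.93% higher and 10.5% lower), with a median of -0.03 against -0.15. Sox5 reached 1 FPKM in CD49f-high only and so passed the filter through that gate alone. Its calls for CD49f-high in these counts are therefore not independent of the filter. Sox2, Sox11 and Sox18 were called higher in CD49f-low than in both other gates, a pattern that 4% of rows had. The moderated F test over the 3 gates called 8 of 9, all but Sox4, and 28.5% of rows.

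The libraries did not overlap for 8 of 9 genes between CD49f-low and CD49f-neg, for 6 between CD49f-high and CD49f-neg and for 5 between the positive gates, where 40.5%, 36.4% and 37.2% of rows did not overlap. These comparisons share libraries, so their counts are not independent of each other. Scaling bears on the counts: the split of all rows in CD49f-low against CD49f-neg was 2623 higher and 537 lower on the deposited FPKM, 1033 and 1231 under median-of-ratios scaling, and 1040 and 1004 under quantile normalization. For CD49f-high against CD49f-low it was 1216 and 2151, 1684 and 1238, and 1577 and 1431 in the same order. The SOX genes called higher in CD49f-low than in CD49f-neg then numbered 6 and 5, of which none turned lower.

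**Figure D3:**
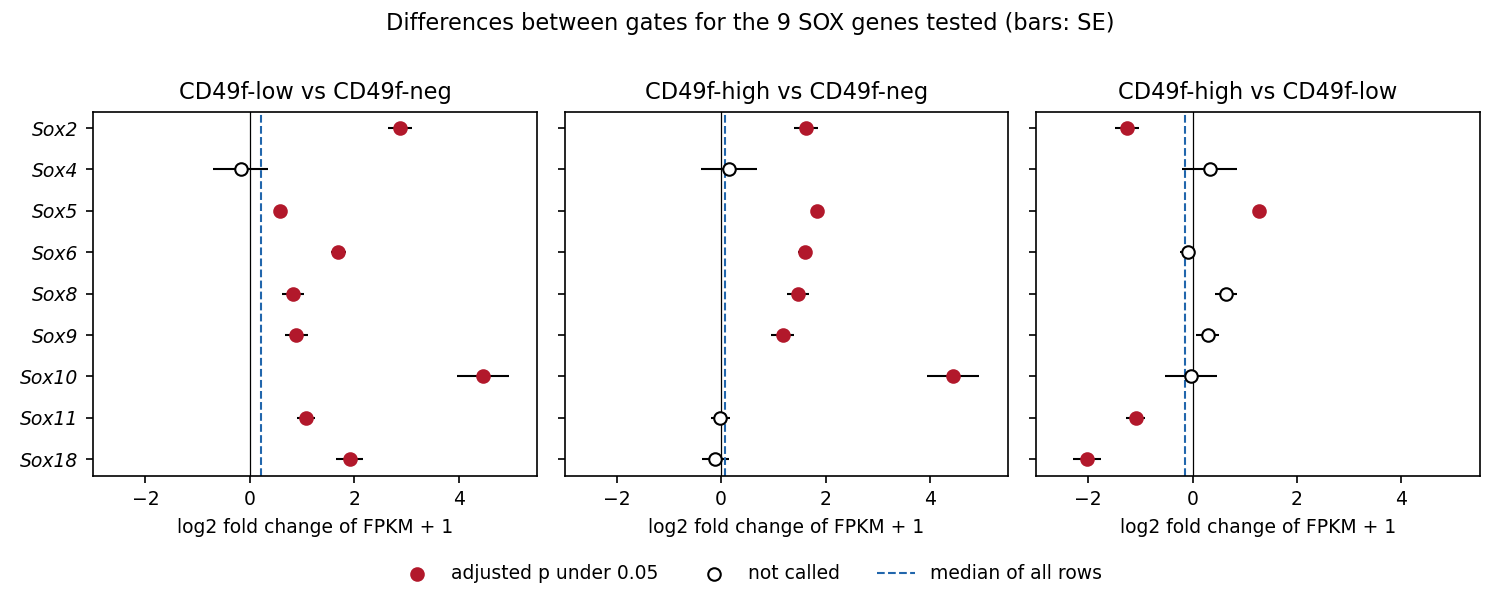
Log2 fold change of FPKM + 1 (horizontal axis) of the 9 SOX genes tested in 3 comparisons between gates, with SE bars, filled where limma's adjusted p was under 0.05 and open where it was not; the dashed line is the median of all rows tested. Of the 9 genes, 8 are filled to the right of the line in CD49f-low against CD49f-neg, 6 in CD49f-high against CD49f-neg, and 1 to the right and 3 to the left between the positive gates.

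Of the 10 SOX genes outside the group, 9 had a row, and only Sox13 passed the filter. Sox13, the remaining SoxD gene, was at 1.24, 0.670 and 0.400 FPKM in CD49f-neg, 1.81, 2.07 and 2.53 in CD49f-low, and 8.34, 6.84 and 9.47 in CD49f-high. The gates were fully separate, in the order seen for Sox5. It was higher than in CD49f-neg by 0.85 (SE 0.19, adjusted p = 0.0168) in CD49f-low and by 2.40 (SE 0.19, adjusted p = 2.4e-05) in CD49f-high, and higher in CD49f-high than in CD49f-low by 1.55 (SE 0.19, adjusted p = 0.000517). The vascular SoxF gene Sox7 averaged 0.119, 0.242 and 0.712 FPKM in the 3 gates, and the SoxB gene Sox3 averaged 0.0327, 0.107 and 0.507. Sox21, a SoxB factor of the hair shaft, averaged 0.0818, 0.697 and 0.474 FPKM. Sox12, the remaining SoxC gene, averaged 0.722, 0.507 and 0.630 FPKM. Sox15, which lies opposite the more abundant Mpdu1, averaged 0.187, 0.340 and 0.192 FPKM. Sox1 and Sox14 averaged at most 0.132 FPKM in any gate, and Sox30 at most 0.216.

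**Figure D4:**
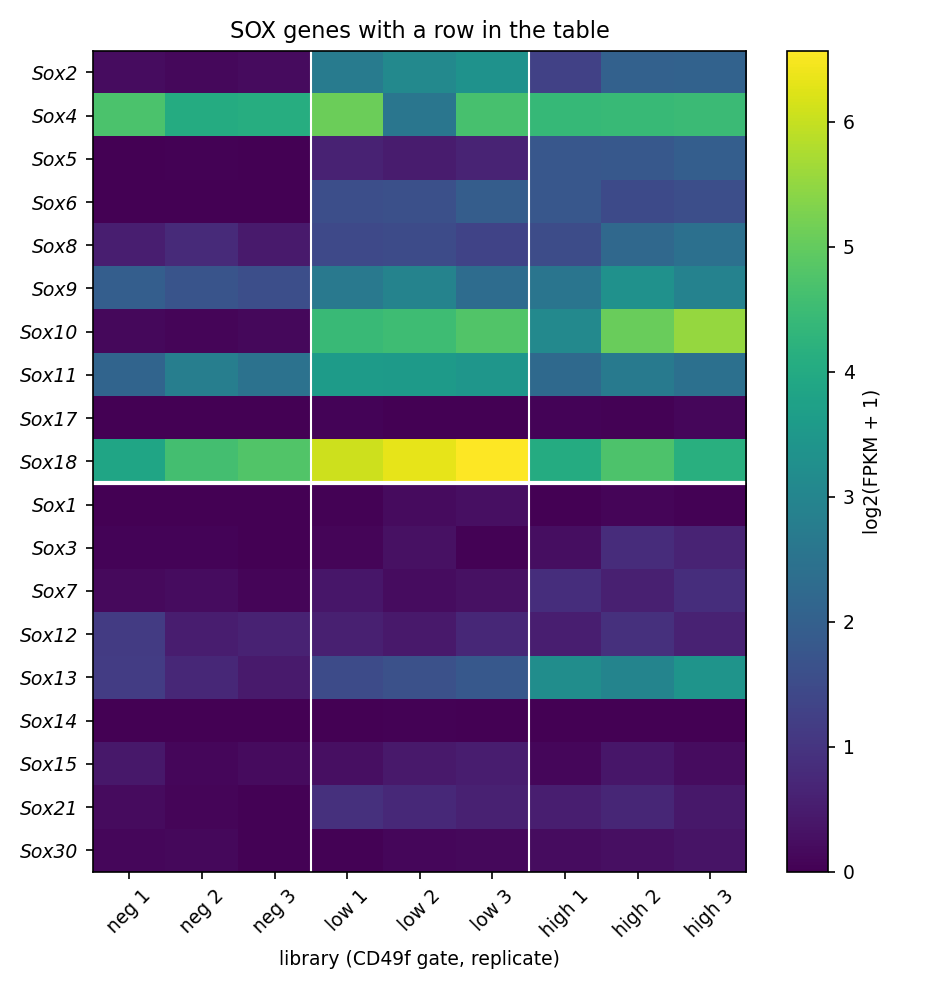
Level of the 19 SOX genes with a row, as log2(FPKM + 1) (colour), in each of the 9 libraries (columns), with the 10 members above the white line and 9 other SOX genes below it. Sox18 in CD49f-low is the brightest row section, and among the other SOX genes Sox13 in CD49f-high stands out.

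Transcription factors known to act with SOX proteins were followed as a list of 18, of which 14 were tested. In CD49f-low against CD49f-neg 6 were higher and 1 was lower, in CD49f-high against CD49f-neg 4 were higher and 3 lower, and in CD49f-high against CD49f-low 1 was higher and 8 were lower. Of all rows, 12.8% were higher and 2.62% lower in the first, 13.9% and 8.27% in the second, and 5.93% and 10.5% in the third. The median differences of the list were 0.39, 0.18 and -0.70, against 0.21, 0.07 and -0.15 for all rows. Pax3, which acts with Sox10 on pigment cell genes, was at 6.45, 8.29 and 8.73 FPKM in CD49f-low and 1.04, 2.56 and 2.85 in CD49f-high, with at most 0.0593 in CD49f-neg. Tfap2a, a neural crest factor, was at 7.19, 8.34 and 10.4 FPKM in CD49f-low and 1.27, 2.92 and 2.78 in CD49f-high. Both were highest in CD49f-low and, like Sox2, lowest of the CD49f-high libraries in replicate 1. Mitf, the master factor of pigment cells and a target of Sox10, was at 10.2, 10.3 and 12.2 FPKM in CD49f-low but at 1.91, 1.61 and 1.63 in CD49f-high, within the CD49f-neg range of 1.66 to 2.59 in replicate 1 and just below it in the others. Maf fell the other way, from between 21.0 and 25.8 FPKM in CD49f-neg to between 3.00 and 3.35 in CD49f-high.

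The rows whose log2(FPKM + 1) ran most alike each SOX gene over the 9 libraries were sought among 10368 single-symbol rows, as a description, since the 9 libraries share gates and a row that separates the gates alike gives a high r. For Sox2 the nearest were Tfap2a and Pax3 (Pearson r = 0.996 each), followed by Dmxl2, Wwp2 and Klhl30. For Sox10 they were Tnik (0.995), Erbb3 (0.993), Megf10, Chd7 and Arnt2, and Erbb3 averaged 0.115, 12.7 and 21.1 FPKM in the 3 gates. For Sox5 they were Tbx2 (0.993), Pdgfb, Cbfa2t3, Foxs1 and Tspan15, with Foxs1, a forkhead factor, averaging 0.173, 2.26 and 25.6 FPKM. For Sox18 they were Stmn2 (0.993), Lamc3 (0.982), Btbd11, Slc6a6 and Ephb6, and Lamc3, a laminin chain, averaged 9.50, 51.0 and 9.14 FPKM. For Sox11 they were Fig4 (0.986), Usp5, Tfb2m, Lamc3 and Taf1, so Lamc3 stood in both of these sets.

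The nearest rows of Sox6 were Rb1 (0.988), Dusp4, Nr1d1 and Foxc1, and those of Sox8 were Dip2b (0.987), Ccsap, Kif21a, Ctnnal1 and Rab38. Sox9 ran most alike Mrpl48 (0.976), Psat1, Plk3, Fhl2 and Slc35e4. Sox4 had weaker neighbours, Gabarapl1 (0.908), Klf8, Cbx3, Phb and Mir7077. Among the SOX genes themselves the highest r over the 9 libraries were those of Sox11 with Sox18 (0.961), Sox6 with Sox10 (0.928), Sox8 with Sox9 (0.912) and Sox5 with Sox8 (0.902). Sox4 had r between -0.257 and 0.172 with the other 8.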

How the data were processed

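RNA from 9 libraries of sorted newborn mouse dermal cells was sequenced, 3 per CD49f gate, with gates taken from the sample titles. Trizol lysis and the NEBNext Ultra library kit were used, per the labels' protocols. The authors deposited FPKM values for 84809 rows, and the submitters' processing notes name FastQC, TopHat2, StringTie and GRCm38, with no versions or settings. Per the file headers each row carries the symbols and positions of the genes it covers, and 1404 of the 24946 rows with a symbol have 2 or more. The labels do not say whether libraries came from separate animals, so p-values measure only the spread between these samples.

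From the deposited FPKM, log2(FPKM + 1) was fitted with limma (version 3.58.1, under R 4.3.3; a mean per gate, empirical Bayes with a mean-variance trend) on rows that reached 1 FPKM in 3 or more libraries, with Benjamini-Hochberg adjustment over all 20523 rows, and the script was tested on simulated data. The pseudocount shrinks the fold change of genes near or below 1 FPKM. Tables were handled with Python 3.11.15 and pandas 2.3.3. Transcripts and exons came from GENCODE M21, and upstream sequence from RefSeq (GRCm38.p6). Alternatives were another pseudocount (0.1), no filter or a filter at 5 FPKM, median-of-ratios scaling, quantile normalization, no mean-variance trend, a replicate block, each library left out, and fits on the 6 libraries compared.

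Libraries of the same number deviated together (correlation of deviations from the gate means between 0.252 and 0.520 in 9 pairs, against -0.453 to 0.118 in the 18 pairs of different numbers). The numbers were therefore taken to pair the samples in the replicate block alone, although the labels give no source for the pairing. The main fit, which gave the calls and the shares of all rows in the Results, left the pairing out. Named were all SOX genes with a row, up to 4 genes per marker list with the smallest adjusted p over the gates, and the 5 rows that ran most alike each gene tested. Itga6, Pecam1 and Col2a1 were added after their values were seen, and Pmp22 was also named outside this rule. The result of 1 gene under the rule is not reported here. The members and lists were chosen with earlier results of these data known. Whole-number read counts were not used, and absolute depth is an estimate, since 97.5% to 98.6% of the low values used lie within 0.03 of a multiple of 0.25 of the step taken as 1 fragment.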

Additional observations from a re-analysis of the deposited data

How the results depend on the processing

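Of the SOX genes called, a filter at 5 FPKM in at least 3 libraries left 5, 3 and 5 for CD49f-low against CD49f-neg, CD49f-high against CD49f-neg and the F test, since fewer of the genes were then tested, and quantile normalization left 5 for the first. All rows called by limma numbered 1358, 1911, 1323 and 2340 with the filter at 5 FPKM (CD49f-low against CD49f-neg, CD49f-high against CD49f-neg, CD49f-high against CD49f-low, F test), and 2044 in the first after quantile normalization. The replicate block, which pairs libraries of the same number, gave 5806, 5309 and 8995 rows for CD49f-low against CD49f-neg, CD49f-high against CD49f-low and the F test, and changed no call of a SOX gene. With each library left out, SOX genes called ranged from 6 to 7, 5 to 6, 3 to 5 and 7 to 8 in the order given first, and all rows from 1342 to 3760, 3008 to 4455, 1869 to 3593 and 4008 to 5655.

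Differences that changed sign, of which only that of Sox10 without CD49f-high replicate 1 was called, were these. With each library left out, Sox4 ranged from -0.66 to 0.59 in CD49f-low against CD49f-neg, turning positive without CD49f-neg replicate 1 (0.033) or CD49f-low replicate 2, and from -0.44 to 0.81 in CD49f-high against CD49f-low, turning negative without CD49f-low replicate 2. In CD49f-high against CD49f-neg, Sox11 ranged from -0.19 to 0.16 and was positive without CD49f-neg replicate 2 or CD49f-high replicate 1 (0.091), and Sox18 ranged from -0.39 to 0.075 and was positive without CD49f-neg replicate 3 or CD49f-high replicate 1 (0.020). Between the positive gates Sox6 was 0.044 under median-of-ratios scaling and 0.026 under quantile normalization, and ranged from -0.18 to 0.024 with each library left out, positive without CD49f-low replicate 3. Sox10 was 0.18 and 0.071 under these scalings and ranged from -0.51 to 0.71, positive without CD49f-low replicate 3 (0.077) or CD49f-high replicate 1. The cause of these changes was not tested. Calls lost or gained for Sox5, Sox8, Sox9 and Sox10 stand beside their results. Sox17 and most other SOX genes were too low to test.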
